A study of Homo sapiens with 6 samples.

Results

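GAB1, EPHA2, CTNNB1, SIRT1, MAPK14 and BAP1 are 6 genes taken as published targets of miR-200a. The study's paper discusses GAB1 and EPHA2 as such, and the other 4 were chosen from the wider literature. They were matched by symbol among the 24462 gene symbols of the deposited count lists, each was found on 1 line, and all 6 had enough counts to be tested. MDA-MB-231, an established triple-negative breast cancer cell line, was transfected and harvested for RNA 48 h later, with 2 libraries in each of 3 groups. The cells received a negative control mimic (NC mimic), a miR-200a mimic at 100 nM, or that mimic at the same dose together with an ELK3 expression plasmid (30 ng), named pcDNA3.1-Flag-ELK3 in the treatment protocol and pcDNA3.1 Hygro(+)-ELK3 in the treatment labels. QuantSeq libraries, which read each polyadenylated RNA near its 3′ end, gave 3055915 to 4868004 counts each.

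MicroRNAs pair through their seed with complementary stretches in the 3′ untranslated region (3′UTR) of messenger RNAs, which lowers translation and often shortens the life of the messenger. The miR-200 family is best known for maintaining the epithelial state by repressing ZEB1 and ZEB2, and mesenchymal lines such as MDA-MB-231 express little of it. A target may fall in protein with little change in its RNA, and only RNA was measured here.

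The mature sequences of the family are shown because its members fall into a pair of seed groups that differ in a single base. The sequences are from RefSeq on GRCh38.p14, 5′ to 3′, with the seed (bases 2 to 8) in capitals. miR-200a and miR-141 have the seed AACACUG, and miR-200b, miR-200c and miR-429 have AAUACUG.
hsa-miR-200a-3p (chr1:1167916-1167937, + strand): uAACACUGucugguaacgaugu
hsa-miR-141-3p (chr12:6964155-6964176, + strand): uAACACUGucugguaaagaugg
hsa-miR-200b-3p (chr1:1167160-1167181, + strand): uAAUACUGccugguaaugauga
hsa-miR-200c-3p (chr12:6963742-6963764, + strand): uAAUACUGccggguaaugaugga
hsa-miR-429 (chr1:1169055-1169076, + strand): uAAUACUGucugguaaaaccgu

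For each gene the longest 3′UTR annotated in GENCODE release 29 (GRCh38) was searched on the messenger strand for CAGTGTT, the DNA letters that pair with bases 2 to 8 of miR-200a. Such a match is called an 8mer where an A follows it (CAGTGTTA) and a 7mer-m8 otherwise. AGTGTTA, without the pairing to base 8, is called a 7mer-A1, and AGTGTT alone a 6mer; each match was given its longest class. A match to bases 2 to 8 was present in 5 of the 6 genes (GAB1, EPHA2, SIRT1, MAPK14 and BAP1), and in 21.8% of the 11238 tested genes with an annotated 3′UTR. CTNNB1 held a 7mer-A1 in its longest 3′UTR, and 1 of its 39 annotated transcripts with a 3′UTR held a match to bases 2 to 8. The same count was 1 of 4 for GAB1, 2 of 4 for MAPK14 and 3 of 4 for BAP1. It was 4 of 4 for SIRT1 and 1 of 1 for EPHA2. Which 3′ ends these cells use was not tested. The windows below show for each gene the matches of its longest class, which were found by sequence and not shown to act. GAB1 has a further 7mer-A1 and a 6mer that are not printed. Each window ends with the match in capitals, and the coordinates are those of the match. All lie in the last exon.
GAB1 first 7mer-m8 (chr4:143469823-143469829, + strand): ttatattttgttaattaCAGTGTT
GAB1 second 7mer-m8 (chr4:143472443-143472449, + strand): aacctgaaattgaacacCAGTGTT
EPHA2 8mer (chr1:16124454-16124461, - strand): taagtttctattctgtCAGTGTTA
CTNNB1 7mer-A1 (chr3:41240039-41240045, + strand): ttttttaagtctctcgtAGTGTTA
SIRT1 7mer-m8 (chr10:67918321-67918327, + strand): cttttgaaatacaaaacCAGTGTT
MAPK14 7mer-m8 (chr6:36110171-36110177, + strand): aagtataaagtcacttcCAGTGTT
BAP1 7mer-m8 (chr3:52401510-52401516, - strand): ctagggctcttcgccttCAGTGTT

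EPHA2 was the only member with an 8mer, a class present in 5.84% of the genes. The 8mer lay 117 nt before the annotated transcript end, in a 3′UTR of 878 nt. In SIRT1 the match lay 63 nt before the end of a 3′UTR of 1797 nt, whereas in MAPK14 it was 1059 nt and in BAP1 497 nt before the end. The GAB1 3′UTR of 5379 nt was the longest of the 6, against a median of 1395 nt over the genes with one. GAB1 and BAP1 also held 2 matches each to CAGTATT, the counterpart for the seed of miR-200b, which 19.5% of the genes held.

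**Figure D1:**
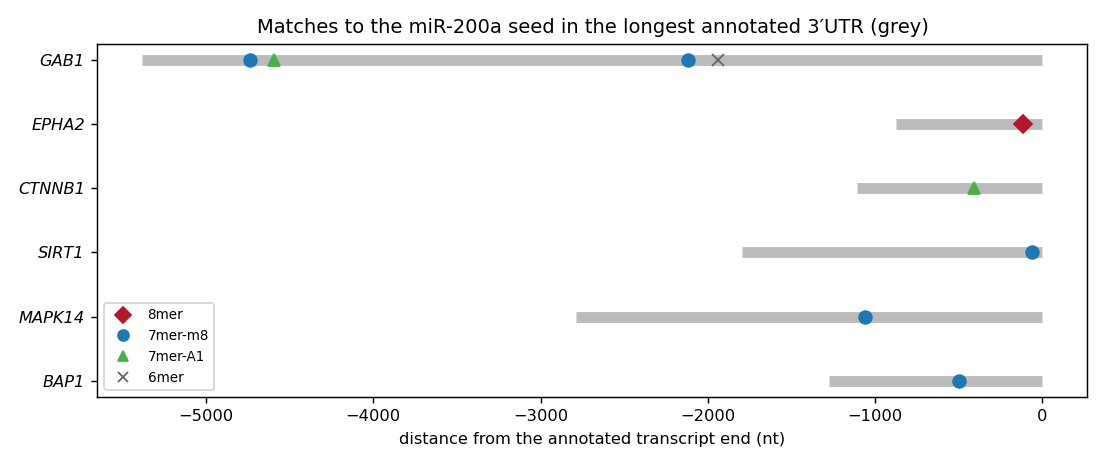
Each grey bar is the longest annotated 3′UTR of a gene, drawn to scale as the distance in nt from the transcript end at 0. Markers give the class of each match to the miR-200a seed, with the EPHA2 8mer at 117 nt and the SIRT1 match at 63 nt closest to the end.

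The cells had the RNA of a mesenchymal breast line. VIM, CD44, AXL, MSN and CAV1 were abundant, with 831 to 11179 counts in each library, while ESR1 had 0 counts, PGR 0 or 1 and CDH1 at most 12. CLDN3 had at most 7 counts. CLDN4 (589 to 1143 counts), CLDN7 (123 to 416), EPCAM (39 to 140) and ERBB2 (99 to 232) were present, although a claudin-low line would have little of these epithelial genes. Of the markers of other cell types, PTPRC reached 10 counts, PECAM1 13 and COL1A1 198. The plasmid was built from the ELK3 coding region, without the 3′UTR of the gene, while QuantSeq reads near the 3′ end of a messenger, so the ELK3 count may miss RNA from the plasmid and does not check the labels. Counted in this way, the log2 fold change of ELK3 in the group that received the mimic and the plasmid, whose libraries are labelled plus ELK3, was -0.79 against the NC mimic (standard error (SE) 0.15, adjusted p = 0.0117) and -0.23 against miR-200a alone (SE 0.15, adjusted p = 0.354). The study also assayed ELK3 by qRT-PCR and western blot, which were not analysed here.

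CPM values are counts rescaled to the same library total, with the totals adjusted by TMM. The test was the quasi-likelihood test of edgeR, fitted over all 6 libraries in 1 model, and p-values were adjusted by Benjamini-Hochberg over the 12650 genes tested. A gene is called at an adjusted p under 0.05, and intervals are 95% confidence intervals from this model. The labels do not say that libraries of a group came from separate cultures, so the p-values measure only the spread between these libraries. In bulk RNA, fewer cells expressing a gene and less of its RNA per cell cannot be told apart. No plasmid is recorded for the NC mimic or miR-200a groups. In comparisons with the libraries labelled plus ELK3, ELK3 and the plasmid DNA itself therefore cannot be told apart. The comparisons share libraries, so their values are given side by side and are not independent of each other.

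Of the 6 published targets, 0 passed the test when miR-200a was compared with the NC mimic, where 0.269% of all genes were called in either direction. CTNNB1 was the 1 member with an unadjusted p under 0.05, and it was higher. DESeq2 and limma also called 0. The fold changes were negative for 3 members and positive for the other 3, with a median of 0.04 on the log2 scale against -0.02 for all genes. EPHA2 and SIRT1 (2 of 6) were lower without overlap between the groups, as were 26.1% of all genes. CTNNB1 and BAP1 (2 of 6) were higher without overlap, as were 22.9% of all genes.

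For the libraries labelled plus ELK3 against the NC mimic, 0 of 6 members passed, against 12.9% of all genes. At an unadjusted p under 0.05 there were also 0, and DESeq2 and limma called 0. The fold change was negative for 5 of the 6, with a median of -0.17 against 0.01 for all genes. SIRT1 was lower without overlap (1 of 6, against 27.6% of all genes) and BAP1 higher (1 of 6, against 29% of all genes).

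Between the groups with the mimic, 1 of 6 members passed for miR-200a plus ELK3 against miR-200a, beside 12.9% of all genes. CTNNB1 was that gene, and it was lower in the libraries labelled plus ELK3. The fold change was negative for 5 of the 6, with a median of -0.30 against 0.02 for all genes. CTNNB1 was also the 1 member that was lower without overlap, against 28% of all genes, and 0 members were higher without overlap, against 30.2%. With both mimic groups averaged against the NC mimic, 0 of 6 members passed (2.02% of all genes), 0 had an unadjusted p under 0.05, and DESeq2 and limma called 0. Here SIRT1 was lower without overlap (1 of 6, against 11.2% of all genes) and BAP1 higher (1 of 6, against 10.3%).

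**Figure D2:**
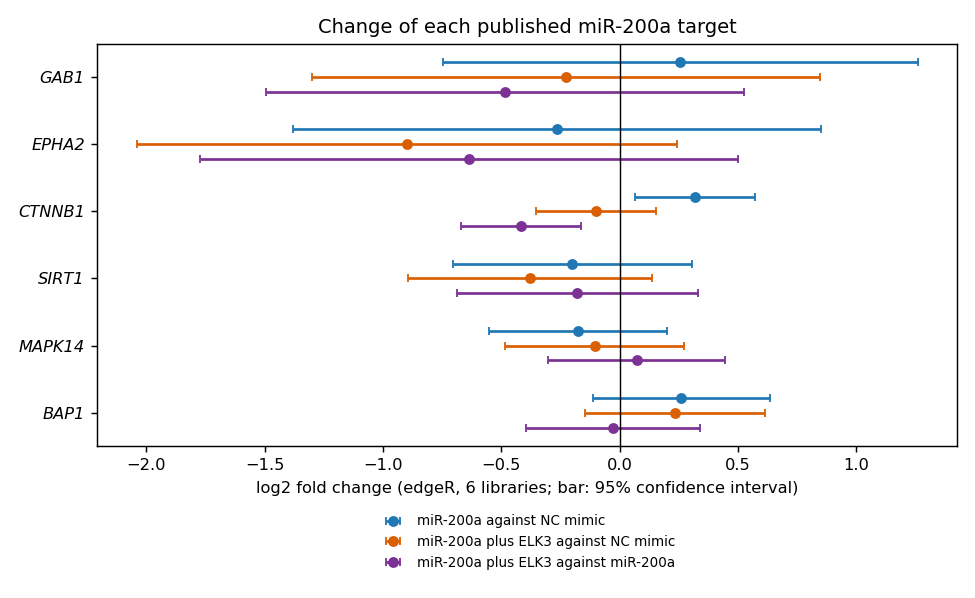
Points are log2 fold changes of the 6 genes in 3 comparisons, and bars their 95% confidence intervals. The interval crosses 0 in 16 of 18 cases, the exceptions being CTNNB1 for miR-200a against NC (0.07 to 0.57) and for miR-200a plus ELK3 against miR-200a (-0.67 to -0.16).

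GAB1 is a docking protein that is phosphorylated below growth factor receptors such as MET and EGFR and gathers PTPN11 (SHP2) and PI3K. It gave 14 and 10 counts in the controls, 22 and 15 after miR-200a, and 14 and 9 in those labelled plus ELK3. The CPM was 3.12 and 3.26, 4.57 and 3.06, and 3.32 and 2.12 in the same order. All 3 groups overlapped, and a single miR-200a library was above the rest. GAB1 was the lowest counted of the 6 genes, and the interval of its log2 fold change for miR-200a, 0.26 (SE 0.45), ran from -0.75 to 1.26 (adjusted p = 0.928). For miR-200a plus ELK3 against the NC mimic it was -0.23 (interval -1.30 to 0.85, adjusted p = 0.787), and against miR-200a -0.48 (interval -1.49 to 0.52, adjusted p = 0.507). The lower end of the first interval corresponds to a change of -40.5%.

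EPHA2 encodes a receptor tyrosine kinase for the membrane-bound A-type ephrins and is abundant in basal-like breast cancer cells. Its counts were 698 and 600 in the controls, 713 and 706 after miR-200a, and 670 and 124 in those labelled plus ELK3. As CPM these were 155 and 196, 148 and 144, and 159 and 29.1. All libraries but 1 lay close together, and the second library labelled plus ELK3 was far below them. The mean CPM was 176 ± 28.5 (SD, n = 2) in the controls, 146 ± 2.96 (SD, n = 2) after miR-200a and 93.9 ± 91.6 (SD, n = 2) in those labelled plus ELK3. The log2 fold change against the NC mimic was -0.26 (SE 0.50, interval -1.38 to 0.85, adjusted p = 0.936) for miR-200a and -0.90 (SE 0.51, interval -2.04 to 0.24, adjusted p = 0.265) for miR-200a plus ELK3. Between the mimic groups it was -0.64 (SE 0.51, interval -1.77 to 0.50, adjusted p = 0.433).

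The EPHA2 value of the latter group rested on 1 library. Without the second library it was -0.15 against the NC mimic and 0.09 against miR-200a. Without the first it was -2.57 and -2.33 in the same order. Each of these fits leaves 1 library in the group, so the spread of that group is not measured. The log2 CPM of EPHA2 differed by -2.43 between these 2 libraries, the 14th largest absolute difference of 12650 genes, where the median absolute difference was 0.32. In the other groups it differed by 0.33 and -0.04. For the other 5 members the difference between the libraries labelled plus ELK3 was between -0.57 (SIRT1) and 0.08 (BAP1). The spread between these libraries was wider than elsewhere, with a root mean square difference over all genes of 0.56, against 0.40 within the controls and 0.34 within the miR-200a group. Without the filter on low counts EPHA2 was called in both comparisons of these libraries (adjusted p = 3.27e-06 against the NC mimic and 0.00127 against miR-200a).

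**Figure D3:**
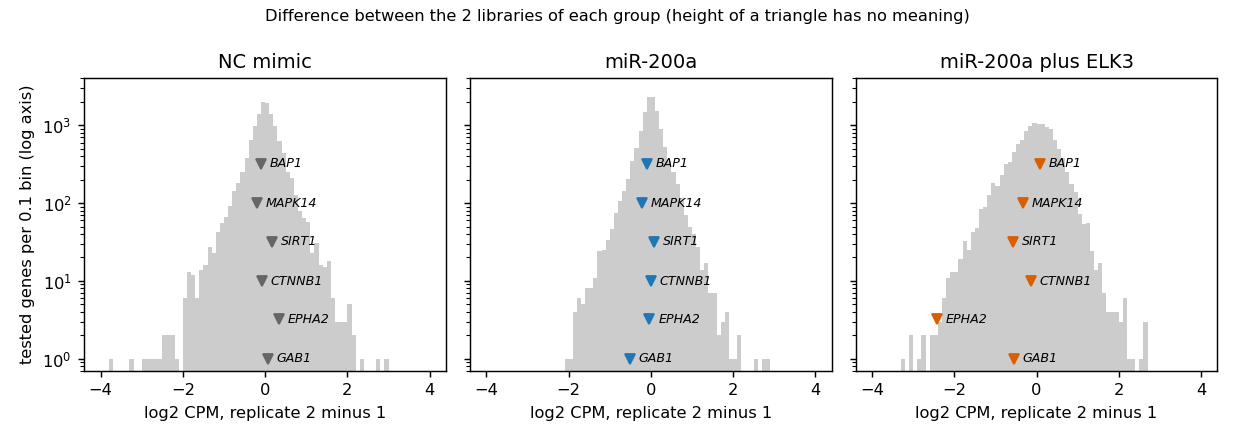
Histograms show, for 12650 genes in each group, the log2 CPM of replicate 2 minus that of replicate 1, with the gene count on a log axis. Triangles mark the 6 targets at heights without meaning, and EPHA2 lies at -2.43 in the libraries labelled plus ELK3, in the tail of the distribution.

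CTNNB1 encodes β-catenin, which links cadherins to the cytoskeleton and acts with TCF/LEF factors in the nucleus when Wnt signalling stops its degradation. It gave 1852 and 1196 counts in the controls, 2414 and 2453 after miR-200a, and 1661 and 1519 in those labelled plus ELK3. In CPM it was at 412 and 390, at 501 and 499.8, and at 393 and 357 in the same order. The miR-200a libraries were the highest, and the other groups overlapped. The means were 401 ± 15.7 (SD, n = 2), 501 ± 0.976 (SD, n = 2) and 375 ± 25.7 (SD, n = 2).

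With miR-200a, CTNNB1 had a log2 fold change of 0.32 (SE 0.11, interval 0.07 to 0.57), a difference of 24.7%, with an unadjusted p of 0.0185 and an adjusted p of 0.413 in edgeR. It was past the threshold with only these 2 groups in the model (0.33, adjusted p = 0.000614), and also when either library labelled plus ELK3 was left out (adjusted p = 0.000536 without the first and 0.000351 without the second). The libraries labelled plus ELK3 differed from the NC mimic by -0.10 (interval -0.35 to 0.16, adjusted p = 0.609). Against miR-200a their log2 fold change was -0.42 (SE 0.11, interval -0.67 to -0.16, adjusted p = 0.0397), a change of -25.0%, and both were below both miR-200a libraries.

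The call for CTNNB1 was near the threshold. It was lost with the replicate block (adjusted p = 0.0718), with DESeq2 (adjusted p = 0.0505) and with only these 2 groups in the model (adjusted p = 0.0963). It was also lost without NC mimic replicate 1 (adjusted p = 0.102) or 2 (0.1004), and without miR-200a replicate 1 (0.275) or 2 (0.287), while the fold change stayed between -0.50 and -0.38 as libraries were left out.

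SIRT1, a nuclear NAD-dependent deacetylase that acts on histones, p53 and FOXO factors, gave 126 and 97 counts in the controls, 121 and 131 after miR-200a, and 116 and 78 in those labelled plus ELK3. Its CPM was 28.1 and 31.7, then 25.1 and 26.7, then 27.5 and 18.3. The NC mimic libraries were above all 4 with the mimic, and the mimic groups overlapped each other. The log2 fold changes were -0.20 (SE 0.23, interval -0.71 to 0.31, adjusted p = 0.861) for miR-200a and -0.38 (SE 0.23, interval -0.89 to 0.14, adjusted p = 0.302) for miR-200a plus ELK3. Neither passed, nor did the difference between the mimic groups of -0.18 (interval -0.69 to 0.33, adjusted p = 0.638). For miR-200a plus ELK3 against the NC mimic, the value was -0.69 without the first library labelled plus ELK3 and -0.12 without the second.

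MAPK14 encodes p38α, the broadly expressed stress-activated kinase of the p38 family. Its counts were 401 and 237 in the controls, 384 and 334 after miR-200a, and 366 and 292 in those labelled plus ELK3. These correspond to a CPM of 89.3 and 77.3, 79.7 and 68.1, and 86.7 and 68.6. All 3 groups overlapped. The log2 fold change was -0.18 (SE 0.17, interval -0.55 to 0.20, adjusted p = 0.824) for miR-200a and -0.11 (SE 0.17, interval -0.48 to 0.27, adjusted p = 0.716) for miR-200a plus ELK3. The lower ends of these intervals correspond to changes of -31.9% and -28.5%. The mimic groups differed by 0.07 (interval -0.30 to 0.45, adjusted p = 0.806).

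BAP1 encodes a nuclear deubiquitinase that removes ubiquitin from histone H2A and works in a complex with HCFC1, ASXL proteins and FOXK factors. It gave 154 and 98 counts in the controls, 198 and 189 after miR-200a, and 160 and 171 in those labelled plus ELK3. Its CPM was 34.3 and 31.98, then 41.1 and 38.5, then 37.9 and 40.2. All 4 libraries with the mimic were above both NC mimic libraries. The log2 fold changes of 0.26 (SE 0.17, interval -0.11 to 0.64, adjusted p = 0.716) and 0.23 (SE 0.17, interval -0.15 to 0.61, adjusted p = 0.389) did not pass, and the lower ends of the intervals correspond to changes of -7.62% and -9.61%. The groups with the mimic differed by -0.03 (interval -0.40 to 0.34, adjusted p = 0.928).

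**Figure D4:**
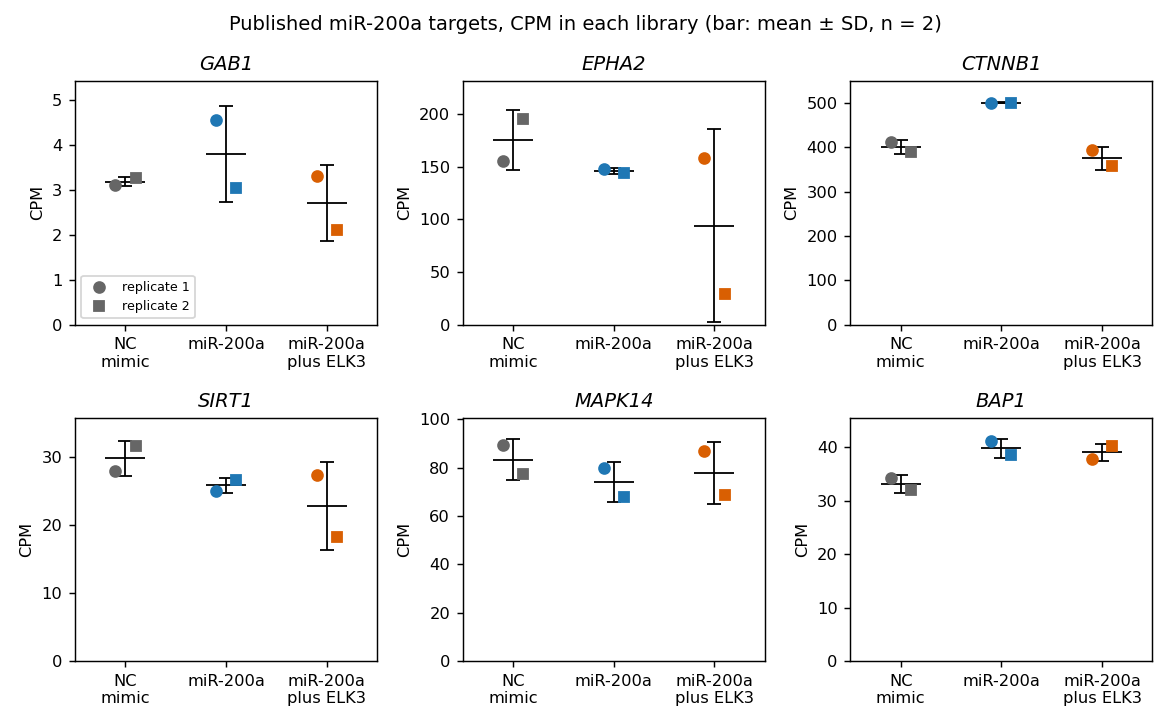
CPM of each gene in the 6 libraries, with each axis starting at 0. Circles are replicate 1, squares replicate 2, and bars the mean ± SD (n = 2). EPHA2 is at 29.1 in 1 library labelled plus ELK3, CTNNB1 is highest in the miR-200a libraries, and BAP1 is lowest in the NC mimic libraries.

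The fold changes of the members for miR-200a can be set beside the class of their matches. EPHA2, with the 8mer, had -0.26 for miR-200a. GAB1, with 2 7mer-m8 matches, had 0.26, and among the genes with 1 such match SIRT1 had -0.20, MAPK14 -0.18 and BAP1 0.26. CTNNB1, with a 7mer-A1, had 0.32. Over all tested genes, the median log2 fold change for miR-200a was -0.09 for the 656 whose best match was an 8mer, -0.04 for the 1797 with a 7mer-m8, -0.022 for the 649 with a 7mer-A1, -0.0099 for the 1717 with a 6mer and -0.002 for the 6419 with no match. These medians were ordered by class. Among the 6 members, EPHA2 had the lowest value and CTNNB1 the highest, and the genes with a 7mer-m8 lay between them, on both sides of 0. The 8mer and the 7mer-A1 class held 1 member each, and the order of the members was not tested. The medians are small beside the intervals of single members, whose narrowest SE for miR-200a was 0.11. For miR-200a plus ELK3 against the NC mimic the medians were not fully ordered by class. They were -0.11 for an 8mer, -0.025 for a 7mer-m8, -0.052 for a 7mer-A1, 0.0088 for a 6mer and 0.045 with no match.

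The log2 CPM profile of each member over the 6 libraries was compared with those of the genes with a mean CPM of 10 or more, as a description in which all points share the same libraries. For each member the 2 highest correlations were picked from 9347 genes (9348 for GAB1) over 6 libraries, and they were not tested. EPHA2 was most like PDIA4 (Pearson r = 0.9997) and HMGB2 (0.998), profiles that share the single low library. CTNNB1 was most like RHOD (0.999) and TGFBR3 (0.997), and SIRT1 most like PRG4 (0.998) and TNFRSF10B (0.996). For MAPK14 the closest were ZKSCAN3 (0.992) and AGFG1 (0.991), for BAP1 GMDS (0.993) and PGM1 (0.985), and for GAB1 DUS4L (0.979) and ATP6V1B2 (0.979).

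The genes that work with the 6 targets were described with 7 lists of partners, relatives, regulators and downstream genes. Of the 108 list genes tested, 0 were called by edgeR for the mimic alone, beside 0.269% of all genes. At an unadjusted p under 0.05 there were 9, and DESeq2 and limma called 0. For miR-200a plus ELK3 against the NC mimic, 15 were called, 7 higher and 8 lower, beside the 12.9% of all genes. Between the groups with the mimic, 19 were called, 8 higher and 11 lower, beside the same 12.9%. With both mimic groups averaged, 2 were called, beside 2.02% of all genes. These counts changed as single libraries were left out. Each such fit leaves 1 library in a group and takes the spread from the other groups. Against the NC mimic, CCND1 and IRS2 kept their calls whichever library was left out, and 13 of the 15 calls were lost without NC mimic replicate 1 and 13 without replicate 2, with 11 lost without either single miR-200a library and 0 without either library labelled plus ELK3. Against miR-200a, IRS2 kept its call in the same way, and 18 of the 19 calls were lost without miR-200a replicate 1 and 18 without replicate 2, with 11 lost without either single NC mimic library. EFNB2, PTPN11 and RPS6KA4 were the 3 that also lost the call without plus ELK3 replicate 2, and 0 were lost without plus ELK3 replicate 1. For both mimic groups, CCND1 and IRS2 lost their calls without either NC mimic library.

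The values below are log2 fold changes with edgeR's adjusted p, for miR-200a plus ELK3 against the NC mimic and then against miR-200a. In each of these comparisons 12.9% of all genes were called, the share to set beside the counts of every list.

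Of 22 tested genes of the β-catenin destruction complex and its nuclear partners, 0 rose and 1 fell against the NC mimic, and 0 rose and 1 fell against miR-200a. The median was -0.10 and -0.07, beside 0.01 and 0.02 for all genes. TCF7L1, a repressing TCF factor, fell against the NC mimic, with -1.04 (adjusted p = 0.0450) and had -0.73 against miR-200a (adjusted p = 0.126). Its value against the NC mimic was -0.62 without plus ELK3 replicate 1 and -1.62 without replicate 2. JUP, plakoglobin, the closest relative of β-catenin, had -0.55 (adjusted p = 0.123) and fell against miR-200a, with -1.01 (adjusted p = 0.0166). Like CTNNB1, JUP was highest in the miR-200a libraries, with a CPM of 38.4 and 36.3. The CPM was 26.7 and 27.7 in the controls and 21.8 and 15.3 in the libraries labelled plus ELK3. For miR-200a against the NC mimic, JUP had 0.46 (edgeR, adjusted p = 0.545) and did not pass. In that comparison 22.9% of all genes were higher without overlap. For miR-200a plus ELK3 against miR-200a, 28% were lower without overlap.

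Of 8 tested target genes of β-catenin, 1 rose and 0 fell in each of these comparisons, with medians of -0.10 and -0.17. CCND1, the cell cycle regulator cyclin D1, rose by 1.40 (adjusted p = 0.000190) and 0.97 (adjusted p = 0.00181). Its CPM was 247 and 256 in the controls, 338 and 340 after miR-200a, and 633 and 693 in those labelled plus ELK3, without overlap between any of the groups. CCND1 and CTNNB1 thus had different orders over the 3 groups. Of all genes, 22.9% were higher without overlap for miR-200a against the NC mimic. For miR-200a plus ELK3 it was 29% against the NC mimic and 30.2% against miR-200a.

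Among the 18 tested docking partners and relatives of GAB1, 2 rose and 1 fell in both comparisons, with medians of -0.05 and -0.11. IRS2, the insulin receptor substrate, fell, with -1.42 (adjusted p = 0.000301) and -1.22 (adjusted p = 0.00121), from a CPM of 481 and 488 in the controls and 421 and 423 after miR-200a to 199.6 and 162. PTPN11, the phosphatase that binds GAB1, rose by 0.67 (adjusted p = 0.0312) and 0.58 (adjusted p = 0.0497), and CRK, an adaptor, by 0.55 (adjusted p = 0.0355) and 0.79 (adjusted p = 0.0104). Without plus ELK3 replicate 2, PTPN11 had 0.40 and 0.29 in these comparisons. GAB2, the close relative of GAB1, had -0.97 (adjusted p = 0.113) and -0.37 (adjusted p = 0.553) and did not pass.

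Of 21 Eph receptors and ephrins, 9 had enough counts to be tested. Against the NC mimic 0 rose and 1 fell, and against miR-200a 1 rose and 2 fell, beside 12.9% of all genes called in each. The medians were 0.30 and -0.29. EFNA5, an A-type ephrin, fell, with -0.56 (adjusted p = 0.0476) and -0.65 (adjusted p = 0.0280). EFNA1, the A-type ephrin best known as a ligand of EPHA2, had -0.74 (adjusted p = 0.0777) and fell against miR-200a, with -0.87 (adjusted p = 0.0420), with a CPM of 8.999 and 9.64 against 16.2 and 17.9. EFNB2, a B-type ephrin, had 0.57 (adjusted p = 0.0742) and rose by 0.63 against miR-200a (adjusted p = 0.0499).

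Of 16 tested sirtuins, SIRT1 regulators and substrates, 1 rose and 2 fell against the NC mimic, and 1 rose and 3 fell against miR-200a, with medians of 0.10 and 0.17. NAMPT, which makes the NAD precursor that sirtuins depend on, fell, with -1.22 (adjusted p = 0.00297) and -1.34 (adjusted p = 0.00271), from a CPM of 1289 and 1218 in the controls and 1360.4 and 1364 after miR-200a to 655 and 424. PPARGC1A, a coactivator deacetylated by SIRT1, fell, with -2.09 (adjusted p = 0.0207) and -2.38 (adjusted p = 0.0110), at a CPM of 1.18 and 1.88 with miR-200a plus ELK3. FOXO1, a SIRT1 substrate, had -0.73 (adjusted p = 0.0575) and fell against miR-200a, with -0.87 (adjusted p = 0.0299). RPS19BP1, a regulator that binds SIRT1, had 0.49 (adjusted p = 0.119) and rose by 0.81 against miR-200a (adjusted p = 0.0253).

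SIRT3, the mitochondrial sirtuin, rose by 0.47 against the NC mimic (adjusted p = 0.0475) and had 0.16 against miR-200a (adjusted p = 0.451). The remaining tested sirtuins did not pass in these comparisons. Against the NC mimic, SIRT2 had -0.78 (adjusted p = 0.128), SIRT5 0.37 (adjusted p = 0.304), SIRT6 0.15 (adjusted p = 0.745) and SIRT7 0.26 (adjusted p = 0.469). SIRT4 was below the count needed for the test.

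Of 20 tested genes of the p38 kinase module, 1 rose and 3 fell in each comparison, with medians of -0.15 and -0.06. DUSP1, a phosphatase that inactivates p38 and JNK, fell, with -1.59 (adjusted p = 0.00309) and -1.61 (adjusted p = 0.00348), from a CPM of 95.1 and 107 in the controls and 97.4 and 108 after miR-200a to 42.9 and 24.4. DUSP10, a phosphatase with the same substrates, fell against the NC mimic, with -1.71 (adjusted p = 0.0205) and had -1.25 against miR-200a (adjusted p = 0.0595). The first value was -2.61 without plus ELK3 replicate 1 and -1.17 without replicate 2. MEF2A, a transcription factor phosphorylated by p38, fell, with -0.50 (adjusted p = 0.0423) and -0.61 (adjusted p = 0.0221).

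ATF2, another transcription factor below p38, had -0.62 (adjusted p = 0.0542) and fell against miR-200a, with -0.64 (adjusted p = 0.0454). RPS6KA4, the kinase MSK2, rose by 0.93 (adjusted p = 0.0271) and 0.80 (adjusted p = 0.0406), the latter 0.51 without plus ELK3 replicate 2. The close relatives of MAPK14 that were tested did not pass: MAPK13 had -0.33 (adjusted p = 0.0852) and -0.23 (adjusted p = 0.201), and MAPK12 -0.17 (adjusted p = 0.760) and -0.38 (adjusted p = 0.437). MAPK11 was below the count needed for the test.

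Of 18 tested genes of the BAP1 complex, its relatives and the Polycomb complex PRC1, which places the histone mark that BAP1 removes, 2 rose and 0 fell against the NC mimic, and 2 rose and 1 fell against miR-200a. The medians were 0.08 and 0.11. HCFC1, the host cell factor bound by BAP1, rose by 0.71 (adjusted p = 0.0135) and 0.74 (adjusted p = 0.0121), from a CPM of 176 and 162 in the controls and 164 and 167 after miR-200a to 243 and 311. UCHL5, a deubiquitinase of the same family as BAP1, rose by 0.61 against the NC mimic (adjusted p = 0.0416) and had 0.47 against miR-200a (adjusted p = 0.0911). BRCA1, for which BAP1 is named, had 0.35 (adjusted p = 0.180) and rose by 0.86 against miR-200a (adjusted p = 0.0120). FOXK1, a DNA-binding partner of BAP1, had -0.66 (adjusted p = 0.0854) and fell against miR-200a, with -0.79 (adjusted p = 0.0486). The FOXK1 CPM in the libraries labelled plus ELK3 was 143 and 79.0, and the fall was -0.46 without the second of them and -1.29 without the first.

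**Figure D5:**
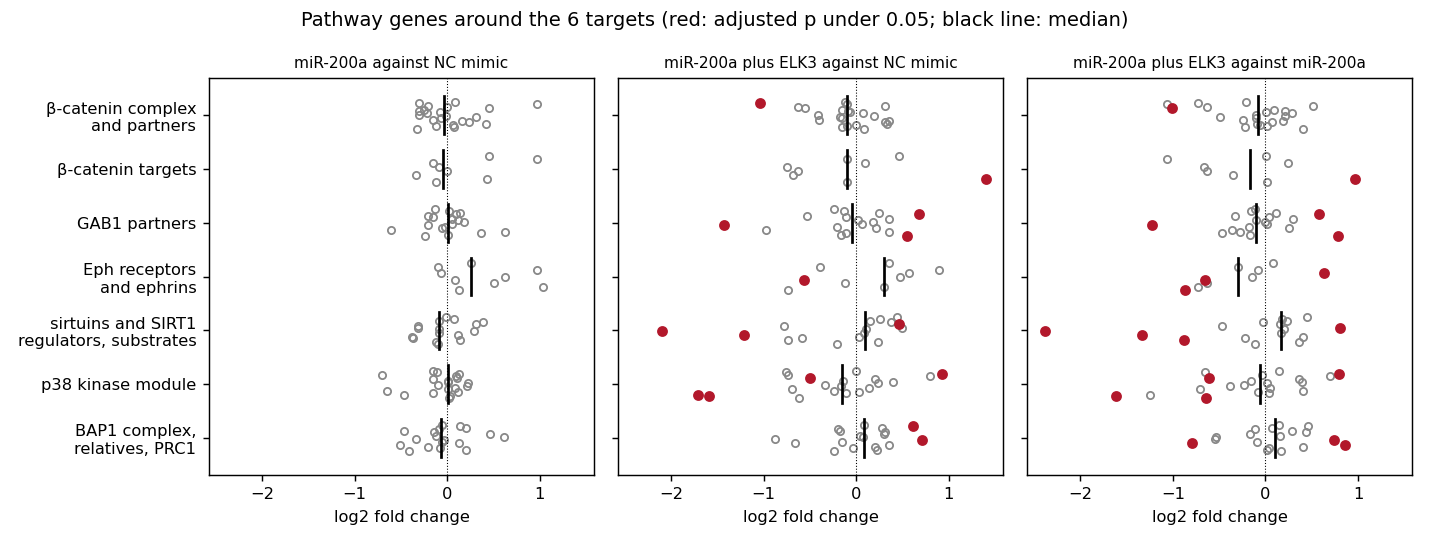
Each circle is the log2 fold change of a tested gene in 1 of 7 lists, for 3 comparisons. Red circles passed an adjusted p under 0.05 and black lines are list medians. No circle is red in the miR-200a against NC mimic panel, and PPARGC1A has the lowest value, -2.38, for miR-200a plus ELK3 against miR-200a.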

How the data were processed

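The values the authors deposited for 6 QuantSeq libraries are raw counts by gene symbol, without normalization. The submitters' processing notes name Bowtie2, edgeR and hg19 without their roles, and the paper's methods name ExDEGA. The counting program, its annotation and its use of strand are not given in the sources used here. No other gene overlapped the last 500 nt of a member's transcript on either strand. Groups came from the labels. Counts on lines sharing a symbol were summed (286 symbols, none a member). Depth was 3055915 to 4868004 counts, and 3 counts, the smallest value read as detected, were 0.616 to 0.982 CPM, which covers counting error only.

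edgeR 4.0.16 in R 4.3.3 was used with filterByExpr (minimum count of 10), TMM, glmQLFit and glmQLFTest, with 3 residual degrees of freedom. It was tested on simulated data. Alternatives were DESeq2 1.42.0, limma 3.58.1 on quantile-normalized log2(count + 1), other filters and scalings, a replicate block, only the 2 groups of a comparison, and each library left out. Sequence matches used GENCODE release 29 on GRCh38, and no coordinates were converted from the build of the counts. Members, lists and tests were chosen with earlier results of these data known. Genes named are the members, up to 4 called genes per list and comparison with the smallest p, close relatives of the members, ELK3, and the 2 genes most correlated with each member among genes with a mean CPM of at least 10.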

Additional observations from a re-analysis of the deposited data

Results flagged for a closer look

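Among the members, CTNNB1 differed between the groups with the mimic by the direct test, where its log2 fold change was -0.42 in the libraries labelled plus ELK3 relative to miR-200a. The fold change was also -0.42 under a replicate block, where edgeR gave an adjusted p of 0.0718.

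The same test found differences in 19 of the 108 list genes tested, beside 12.9% of all genes. How these calls depended on single libraries is given with the lists above. The fold changes of those that were higher with miR-200a plus ELK3 were 0.97 for CCND1, 0.86 for BRCA1, 0.81 for RPS19BP1, 0.80 for RPS6KA4, 0.79 for CRK, 0.74 for HCFC1, 0.63 for EFNB2 and 0.58 for PTPN11. Those that were lower had -2.38 for PPARGC1A, -1.61 for DUSP1, -1.34 for NAMPT, -1.22 for IRS2, -1.01 for JUP, -0.87 for EFNA1, -0.87 for FOXO1, -0.79 for FOXK1, -0.65 for EFNA5, -0.64 for ATF2 and -0.61 for MEF2A.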

How the results depend on the processing

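Over 24 member fold changes and 350 alternative values, 319 kept their direction and side of the threshold, 14 reversed, 10 newly passed and 7 lost a call. The cause of these changes was not tested. The counts of calls below stand without the share of all genes called under the same setting. They are therefore not read as results about the members or list genes. The number of members called for miR-200a alone was 1 with only the 2 compared groups and 0 to 1 without single libraries. For miR-200a plus ELK3 against the NC mimic it was 1 with no filter on low counts and 0 to 2 without single libraries. Against miR-200a it was 0 with DESeq2, with the replicate block and with only the 2 compared groups, 2 with no filter, and 0 to 2 without single libraries. For both mimic groups it was 1 with no filter and 0 to 1 without single libraries. The same count of list genes was 12 with only the 2 compared groups and 0 to 11 without single libraries for miR-200a; for miR-200a plus ELK3 against the NC mimic 23 with no filter, 9 with the replicate block, 4 with only the 2 compared groups and 2 to 43 without single libraries; against miR-200a 8 with only the 2 compared groups and 1 to 40 without single libraries; and for both groups 4 with DESeq2, 8 with no filter and 0 to 30 without single libraries.

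The member fold changes that changed sign were the following. GAB1 was -0.010 for both groups with upper-quartile scaling. Without single libraries, GAB1 ran from -0.056 to 0.52 for miR-200a, from -0.58 to 0.047 for miR-200a plus ELK3 and from -0.15 to 0.16 for both groups. MAPK14 ran from -0.28 to 0.035 for miR-200a plus ELK3 against the NC mimic. Against miR-200a, EPHA2 ran from -2.33 to 0.089, SIRT1 from -0.51 to 0.053, MAPK14 from -0.12 to 0.20 and BAP1 from -0.10 to 0.019. Where 1 library was left in a group, it was assumed to vary like the others.

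Same-numbered libraries did not deviate together (correlations of -0.003, -0.108 and -0.036 between groups), so the numbers were not taken as pairs. Crossing the numbers in the group labelled plus ELK3, an alternative added after the data were seen, left 1 member and 18 list genes called against miR-200a. The replicate block, as above, called 0 and 14. Members with a match to bases 2 to 8 numbered 6 over all annotated transcripts, 6 with 6-base matches included and 1 for 8mers only. GAB1, the member with the fewest counts (9 to 22 in a library), had an SE of 0.45 for miR-200a.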
